A study of Homo sapiens with 6 samples.

Results

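ATF4 and 9 genes that act with it or after it in the cellular stress response were followed in H2452 cells, a pleural mesothelioma line, with and without an sgRNA against NF2. The 10 genes are ATF4, ATF3, ATF5, DDIT3, CEBPB, TRIB3, CHAC1, SESN2, GDF15 and VLDLR, out of 58735 genes in the deposited tables. They were chosen by name, with results of the same contrast already known, so their differences between the groups are given as a description and without a test. The contrast has 3 libraries with a scrambled control sgRNA (sgCtrl, genotype WT) and 3 libraries with the sgRNA sgNF2-1 (genotype NF2-KO), all grown in RPMI-1640 with fetal bovine serum, penicillin and streptomycin. The labels name no treatment. Both groups carry a lentiviral vector with Cas9 and mCherry and were sorted for mCherry, so each group is a sorted population and a single NF2 sgRNA stands for the knockout. The labels do not say whether the 3 libraries of a group came from separate cultures, so p-values measure only the spread between these libraries.

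ATF4 is the transcription factor at the centre of the integrated stress response. When kinases phosphorylate the initiation factor eIF2, bulk protein synthesis slows while the ATF4 mRNA, through short upstream reading frames, is translated better. The ATF4 protein then pairs with C/EBP proteins, or with other bZIP factors, on C/EBP-ATF composite sites near genes for amino acid supply, redox balance, feedback control and cell death. ATF4 is therefore controlled to a large extent at translation, which a count of its mRNA does not measure. The other transcription factors here are ATF3, ATF5, DDIT3 (CHOP) and CEBPB. TRIB3, CHAC1 and SESN2 act as feedback and metabolic effectors, GDF15 is secreted, and VLDLR is a lipoprotein receptor.

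The composite site was looked for in the promoter windows of the 10 genes because it is the sequence that ATF4 dimers are known to read. The windows, from RefSeq on GRCh38.p14, run from 250 bases before to 50 bases after a transcript start, and all 10 genes had at least 1 of them, 18 in all. TGATGNAA, searched on both strands, lay in the windows of 2 of the 10 genes, against 4.46% of 27305 genes. Counted by window it lay in 2 of the 18, against 3.62% of 35116 windows. The matches were in ATF3, at chr1:212565186-212565253 on the plus strand, where GENCODE 29 places no gene, and in CHAC1, at chr15:40953251-40953280 on the plus strand, inside the annotated 5′ UTR of CHAC1. Both stretches are printed 5′ to 3′ with the matching bases in capitals. In CHAC1 the match reads on the opposite strand.
ATF3: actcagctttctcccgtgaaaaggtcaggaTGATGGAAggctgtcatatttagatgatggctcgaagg
CHAC1: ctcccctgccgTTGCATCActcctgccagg
The first base of the match lies at -191 in ATF3 and at -209 in CHAC1, counted from the RefSeq start. The palindromic cAMP response element TGACGTCA was in no window of the 10 genes and in 2.25% of all genes. The ER stress response element, CCAAT and CCACG with a fixed spacer, was likewise in none of the 10 and in 0.0916% of all genes. GGAATG, the core that TEAD factors read, was in windows of ATF5 and GDF15, against 16.7% of all genes. The GGAATG matches and the composite sites lay in different genes, so no overlap between them could arise. A match is a description of the letters only, and binding was not measured.

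Total counts were 14782423 to 17416463 per library, and counts were scaled to CPM, which sets a gene's count against its library's depth after TMM scaling. NF2 itself had 73.7, 72.9 and 67.5 CPM in sgCtrl and 39.3, 52.0 and 41.4 CPM in sgNF2-1, so that its transcript was reduced and still present (log2 fold change -0.69, standard error 0.10, adjusted p = 7.9e-06 from edgeR). Mitochondrial genes took 2.65% to 3.69% of counts in sgCtrl and 3.67% to 4.67% in sgNF2-1, and their part in the results was not tested. Of 12 mesothelial markers 10 were tested, and 3 rose, 3 fell and 4 did not pass, where 17.7% of all tested genes rose and 16.6% fell. PDPN fell from 67.9 to 28.0 CPM, KRT7 rose from 235.7 to 542.9 CPM, and WT1 fell from 10.0 to 4.86 CPM. Of markers picked after their values were seen, KRT8, KRT18 and VIM were at 797 CPM or more in both groups, CALB2 was at 4.33 CPM or less, and PTPRC, the pan-leukocyte marker, was at 0 in all 6 libraries. Of 6 markers of other cell types 3 were tested: CD14 fell from 139.1 to 66.9 CPM, PECAM1 fell from 6.31 CPM by 2.28 on the log2 scale, and CDH5, the remaining one, did not pass. In bulk RNA, fewer cells with a transcript and less of it per cell cannot be told apart.

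ATF4 (ENSG00000128272, chr22:39519695-39522685, plus strand, GRCh38) had the highest mean of the 10 transcripts in both groups, in CPM and in the length-scaled levels given below. The sgCtrl libraries held 466.0, 440.0 and 526.1 CPM of it, and the sgNF2-1 libraries 706.4, 670.8 and 740.4 CPM. Every sgNF2-1 library lay above every sgCtrl library. The mean went from 477.4 ± 44.2 (SD, n = 3) to 705.9 ± 34.8 CPM (SD, n = 3), a log2 fold change of 0.56 with a standard error of 0.09, and leaving out any 1 library gave 0.51 to 0.64. The transcript thus stood at 148% of its control level, a smaller relative difference than in 6 of the other 9 genes. ATF4 has processed pseudogenes that can share its reads. ATF4P3 held 14 to 49 counts per library, ATF4P4 at most 1, and ATF4P1 and ATF4P2 held 0, against at least 7222 counts of ATF4 itself.

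**Figure D1:**
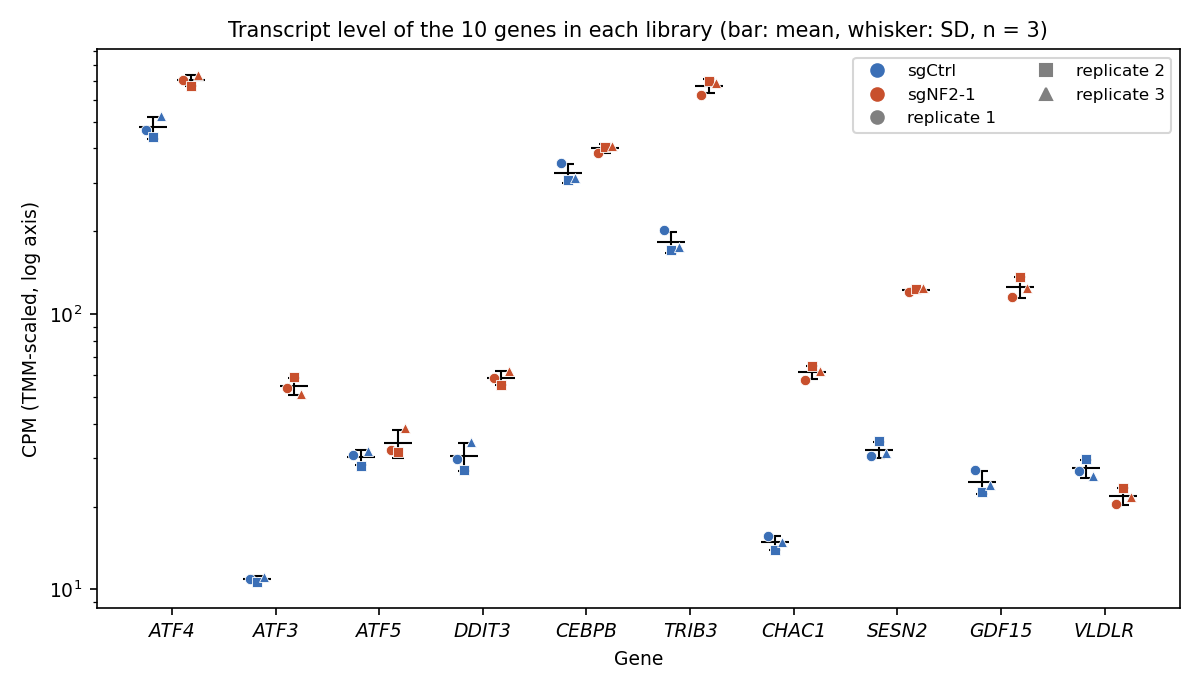
CPM of each of the 10 genes (vertical axis, log scale) in the 6 libraries, with points for libraries, bars for group means and whiskers for the SD (n = 3). The sgNF2-1 points lie above the sgCtrl points for 8 genes and below them for VLDLR, and the groups overlap for ATF5.

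ATF3, a bZIP factor that stress induces and that can repress or activate its targets, was low in sgCtrl and 5.03-fold higher in sgNF2-1. Its counts of 172, 174 and 169 in sgCtrl corresponded to 10.9, 10.6 and 11.1 CPM. In sgNF2-1 it had 948, 911 and 730 counts, or 53.9, 59.0 and 51.3 CPM. The sgCtrl libraries were within 1 CPM of each other, and the lowest sgNF2-1 library was far above them. ATF3 (ENSG00000162772, chr1:212565334-212620777, plus strand) had a log2 fold change of 2.33 (standard error 0.11), ranked 27 from the top among 14179 tested genes.

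DDIT3, which encodes CHOP, a C/EBP family protein that favours cell death under lasting stress, was 1.93-fold higher. The sgCtrl values were 29.9, 27.2 and 34.2 CPM and the sgNF2-1 values 58.7, 55.1 and 62.4 CPM. The groups did not overlap, and the log2 fold change was 0.95 (standard error 0.10). DDIT3 (ENSG00000175197, chr12:57516588-57521737, minus strand) shares its locus with MARS, the methionyl-tRNA synthetase gene on the plus strand, which went from a mean of 4012 to 7354 counts (log2 fold change 0.88, adjusted p = 5.1e-09 from edgeR). Whether the authors counted by strand is not given in the sources used here, so reads of DDIT3 and of MARS in the shared stretch cannot be told apart.

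CEBPB, the C/EBP protein that can pair with ATF4, was abundant in both groups and differed little. Its levels were 353.8, 306.4 and 312.4 CPM in sgCtrl and 383.9, 405.8 and 408.8 CPM in sgNF2-1. No sgNF2-1 library fell below the highest sgCtrl library, replicate 1. CEBPB (ENSG00000172216, chr20:50190734-50192689, plus strand) was 1.23-fold higher, with a log2 fold change of 0.30 (standard error 0.08) and 0.26 to 0.37 without any 1 library. Its antisense gene CEBPB-AS1 held 4 to 24 counts per library, and reads of the pair cannot be told apart where they overlap.

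ATF5, a close relative of ATF4 that is also regulated at translation, was the member with overlapping groups. Its levels were 30.8, 28.1 and 31.8 CPM in sgCtrl and 32.0, 31.5 and 38.7 CPM in sgNF2-1. The mean of sgNF2-1 was raised mostly by replicate 3, and replicate 2 lay below the highest sgCtrl library. ATF5 (ENSG00000169136, chr19:49928702-49933935, plus strand) had a log2 fold change of 0.17 (standard error 0.11), and leaving out 1 library moved it between 0.08 and 0.23. NUP62, a nuclear pore gene on the opposite strand over the same locus, had 1396 and 1589 mean counts in sgCtrl and sgNF2-1, with a log2 fold change of 0.19 (adjusted p = 0.069 from edgeR). With the strand setting unknown, reads of NUP62 in the shared stretch cannot be told apart from those of ATF5, so the ATF5 values are uncertain.

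TRIB3, a pseudokinase that binds ATF4, DDIT3 and the kinase AKT, was the effector with the largest gain in CPM. It had 201.4, 171.6 and 175.2 CPM in sgCtrl and 627.0, 699.7 and 692.8 CPM in sgNF2-1. The lowest sgNF2-1 library, replicate 1, lay far above the highest sgCtrl library, also replicate 1. TRIB3 (ENSG00000101255, chr20:362835-397559, plus strand) was 3.68-fold higher, with a log2 fold change of 1.88 (standard error 0.09).

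CHAC1, the enzyme that breaks down glutathione, was 4.15-fold higher. Its sgCtrl levels were 15.7, 14.0 and 14.8 CPM, and its sgNF2-1 levels 57.6, 64.5 and 62.4 CPM. The groups were widely separated relative to their SDs of 0.860 and 3.56 CPM. For CHAC1 (ENSG00000128965, chr15:40952962-40956519, plus strand) the log2 fold change was 2.05 (standard error 0.11).

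SESN2, a leucine sensor that holds back mTORC1 when amino acids are scarce, was 3.82-fold higher and the most even of the 10 in sgNF2-1. The sgCtrl libraries had 30.6, 34.5 and 31.2 CPM and the sgNF2-1 libraries 119.9, 123.2 and 124.4 CPM. SESN2 (ENSG00000130766, chr1:28259527-28282491, plus strand) had a log2 fold change of 1.93 (standard error 0.09), and leaving out any 1 library gave 1.90 to 1.99.

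GDF15, a secreted cytokine of the TGF-beta superfamily that acts on appetite through a brainstem receptor, showed the largest fold change of the 10. Its sgCtrl values of 27.2, 22.6 and 23.9 CPM compared with 115.3, 136.4 and 123.9 CPM in sgNF2-1. All 3 sgNF2-1 libraries were above 100 CPM and all 3 sgCtrl libraries below 30 CPM. GDF15 (ENSG00000130513, chr19:18374731-18389176, plus strand) was 5.10-fold higher, with a log2 fold change of 2.35 (standard error 0.10), and ranked 23 from the top among the tested genes.

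VLDLR, the lipoprotein receptor, which ATF4 is known to induce under ER stress, was the 1 gene of the 10 that was lower in sgNF2-1. It had 26.9, 29.8 and 25.8 CPM in sgCtrl and 20.4, 23.4 and 21.7 CPM in sgNF2-1. The highest sgNF2-1 library, replicate 2, lay below the lowest sgCtrl library, replicate 3. VLDLR (ENSG00000147852, chr9:2621834-2660053, plus strand) was at 79.4% of control, with a log2 fold change of -0.34 (standard error 0.11) and -0.38 to -0.27 without any 1 library. VLDLR-AS1, antisense to it, had 2, 6 and 1 counts in sgCtrl and 11, 8 and 21 in sgNF2-1, too few for the filter, and reads in the stretch they share cannot be told apart.

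All 10 genes passed the filter on low counts. At an adjusted p under 0.05 (edgeR, adjusted over all tested genes), 8 of them were higher, where 17.7% of all tested genes were, and VLDLR was lower, where 16.6% were. Since the genes were chosen with this contrast known, nothing is read from that count. Under a second rule, an unadjusted p under 0.05 with a log2 fold change beyond 0.5, 7 were higher, against 9.22% of all genes. CEBPB dropped out under that rule, and VLDLR too. The groups did not overlap for the 8 higher genes, as for 23.2% of all genes in that direction, nor for VLDLR, as for 22.2% of all genes in the other. Without sgCtrl replicate 2, both CEBPB and VLDLR missed the adjusted threshold, and without sgNF2-1 replicate 1 VLDLR missed it. The summed CPM of the 10 genes was 1193, 1085 and 1186 in sgCtrl and 2175, 2269 and 2327 in sgNF2-1.

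The genes on either side of each member were looked at, because a whole region can differ between populations. With up to 10 tested genes on each side, the median log2 fold change of the neighbours lay between -0.16 (around VLDLR, 15 neighbours) and 0.26 (around GDF15). The neighbours of ATF3, CHAC1, SESN2 and TRIB3 had medians of 0.04, -0.05, -0.02 and 0.08, far from the values of these 4 genes themselves. The highest single neighbours of these genes stood at 0.54, 1.69, 1.19 and 1.95, in the same order. Among all tested genes 17.7% were higher and 16.6% lower. Around GDF15, 7 of 20 neighbours passed the test as higher and 1 as lower. Around TRIB3, 5 of 15 passed as higher and 1 as lower, and the highest, at 1.95, stood above TRIB3 itself at 1.88. Around ATF3, CHAC1 and SESN2, with 20 neighbours each, 3, 4 and 2 were higher and 3, 4 and 3 lower. Around DDIT3 the median was 0.13, with 5 of 20 higher and 4 lower, and the neighbours there include MARS, SHMT2 and INHBE, which belong to the amino acid response or to the ATF4-responsive regulators. ATF4 had neighbours with a median of 0.00, 4 higher and 5 lower, and 0.27 when only 5 genes on each side were taken. The median over all tested genes was -0.00.

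**Figure D2:**
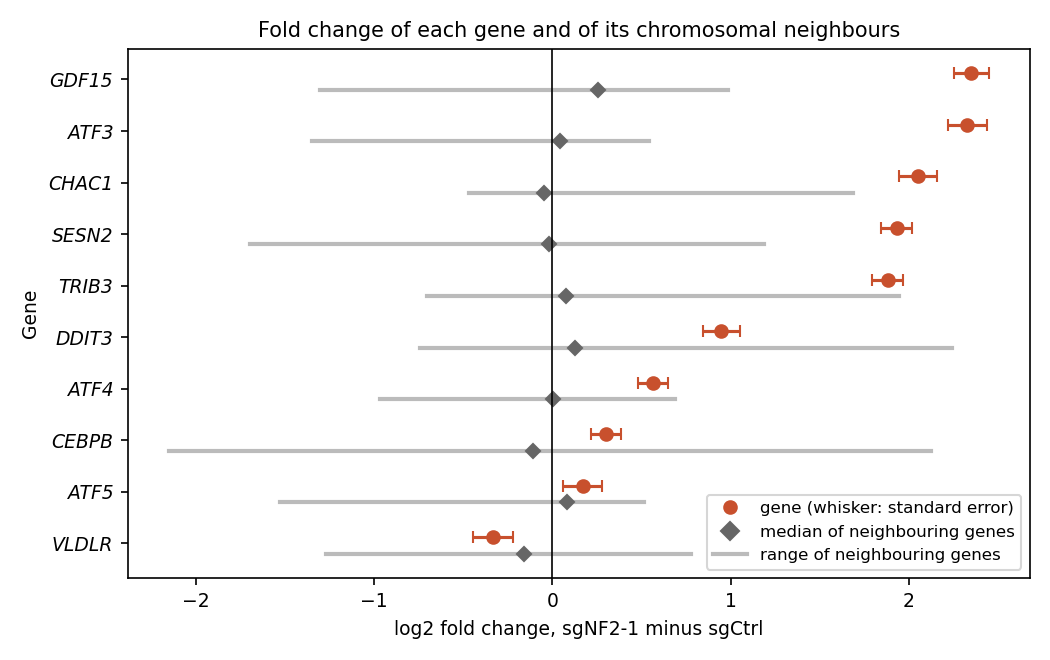
Log2 fold change, sgNF2-1 minus sgCtrl (horizontal axis), of each of the 10 genes with its standard error, beside the median and the range of its neighbouring tested genes. ATF3, GDF15, CHAC1, SESN2 and TRIB3 lie at 1.88 or more while the medians of their neighbours lie between -0.05 and 0.26.

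Levels of different genes were compared as FPKM, which divides by gene length. In sgCtrl, ATF4 (179.9 FPKM) and CEBPB (157.1 FPKM) headed the order, and their libraries overlapped. TRIB3 followed at 50.4 FPKM, DDIT3 at 22.1, GDF15 at 11.1, ATF5 at 9.70, SESN2 at 8.80, CHAC1 at 6.82, VLDLR at 2.79 and ATF3 at 2.55 FPKM. Of these neighbours in the order, only the pairs ATF4 with CEBPB and ATF5 with SESN2 had overlapping ranges over the 3 libraries. ATF3, last in sgCtrl, was thus present at a small fraction of the level of ATF4.

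In sgNF2-1 the order changed below ATF4. CEBPB (191.8 FPKM) and TRIB3 (184.1 FPKM) overlapped in their ranges behind ATF4 (263.6 FPKM). GDF15 passed DDIT3, at 56.4 against 42.2 FPKM, and SESN2 (33.3 FPKM) and CHAC1 (28.1 FPKM) passed ATF5. ATF3 at 12.7 FPKM and ATF5 at 10.8 FPKM overlapped, and VLDLR was last at 2.20 FPKM. Among all genes in the table ranked by mean FPKM, TRIB3 moved from rank 813 to rank 188, GDF15 from 3674 to 736 and ATF3 from 8462 to 3352, while ATF4 moved from 201 to 115 and CEBPB from 235 to 180.

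**Figure D3:**
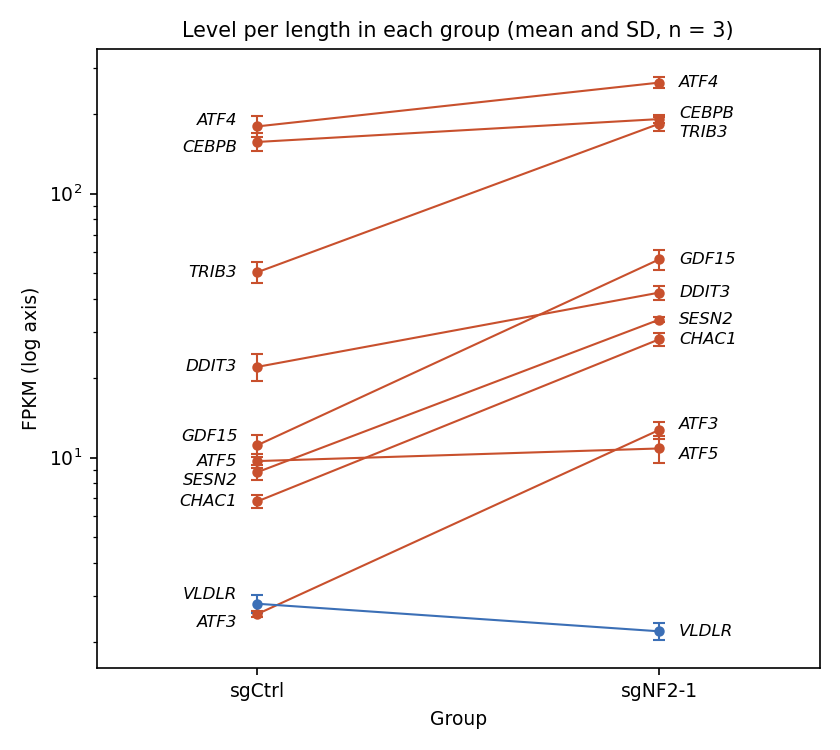
Mean FPKM of each gene (vertical axis, log scale) in sgCtrl and sgNF2-1, with whiskers for the SD (n = 3) and lines joining the 2 groups, red where sgNF2-1 is higher and blue where it is lower. TRIB3 goes from 50.4 to 184.1 FPKM, beside CEBPB, ATF3 leaves the last place, and VLDLR goes from 2.79 to 2.20 FPKM.

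Within a group the libraries also differed, by much less than the groups did for the genes with large fold changes. On the log2 scale, deviations of single libraries from their group mean ran from -0.15 to 0.19. ATF4, DDIT3 and ATF5, the gene with overlapping groups, had the same order of libraries in both groups, with replicate 3 highest and replicate 2 lowest. TRIB3, CHAC1 and GDF15 shared another order, in which sgCtrl replicate 1 was highest and replicate 2 lowest, while in sgNF2-1 replicate 2 was highest and replicate 1 lowest. SESN2 and VLDLR were highest in sgCtrl replicate 2, by 0.11 and 0.12. With 3 libraries per group these orders are a description. In neither group did TRIB3, CHAC1 or GDF15 share its highest library with ATF4.

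**Figure D4:**
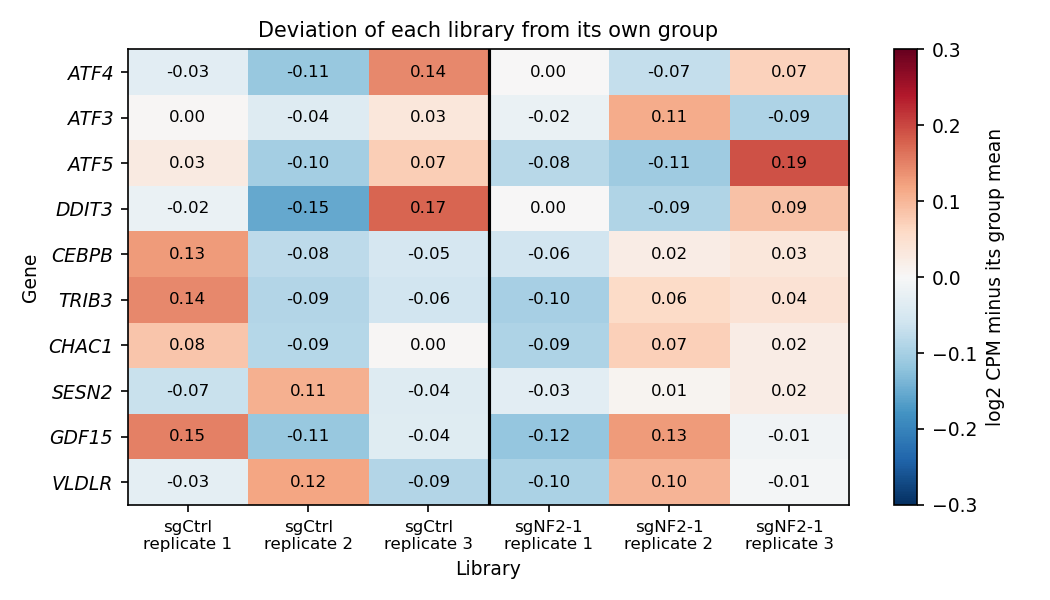
Deviation of each library from the mean of its own group (colour and printed value, log2 CPM) for the 10 genes (rows) in the 6 libraries (columns). The values run from -0.15 to 0.19. ATF4, ATF5 and DDIT3 are highest in replicate 3 of both groups, and TRIB3, CHAC1 and GDF15 in sgCtrl replicate 1 and sgNF2-1 replicate 2.

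Genes that share the pathway with the 10 were counted from lists, each set beside 17.7% higher and 16.6% lower among all tested genes. The lists were chosen with earlier results of these data known, so their counts and shares are a description. Some genes, among them CEBPG, JDP2, PPP1R15A and HERPUD1, stand in more than 1 list and are counted in each. Of 20 further ATF4-responsive regulators, 19 were tested, and 14 rose, 0 fell and 5 did not pass (median log2 fold change 0.61). The lowest log2 fold change in this list was -0.01, 0 were lower in edgeR at an unadjusted p under 0.05, and DESeq2 also called 0 lower. At 73.7%, the share that rose compares with 17.7% of all tested genes. INHBE, an activin subunit, rose from 0.887 ± 0.164 to 4.21 ± 0.964 CPM (log2 fold change 2.24, adjusted p = 3.3e-06 from edgeR). ADM2, a secreted peptide, rose from 18.9 ± 2.94 to 56.7 ± 2.33 CPM, and STC2, a secreted glycoprotein, from 196.1 ± 14.2 to 485.7 ± 14.2 CPM (adjusted p = 7.0e-11 and 1.1e-11 from edgeR). DDIT4, an mTORC1 inhibitor chosen for mention after its values were seen, stood at 110.2 and 109.6 CPM (log2 fold change -0.01, adjusted p = 0.95 from edgeR). Of 28 amino acid enzymes and carriers, 27 were tested, and 22 rose and 1 fell (median log2 fold change 0.79). PCK2, the mitochondrial PEP carboxykinase, rose by 2.22 on the log2 scale and SLC7A5, the large neutral amino acid carrier, by 1.71 (adjusted p = 1.5e-14 and 5.1e-13 from edgeR), and PHGDH, the entry enzyme of serine synthesis, by 1.31. ASNS, asparagine synthetase and a classical ATF4 target that was also chosen after its values were seen, was at 2.71 and 3.79 CPM and did not pass (log2 fold change 0.48, standard error 0.25, adjusted p = 0.14 from edgeR).

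On the upstream side of the pathway, of 12 genes for eIF2 kinases, phosphatase subunits and their helpers, PPP1R15A rose, EIF2AK3 fell and 10 did not pass (median log2 fold change 0.07), where 9313 of all 14179 tested genes did not pass. PPP1R15A, the feedback subunit that dephosphorylates eIF2 and itself an ATF4 pathway target, rose from 56.8 ± 3.57 to 118.8 ± 5.26 CPM (log2 fold change 1.06, adjusted p = 7.0e-10 from edgeR). EIF2AK3, which encodes the ER stress kinase PERK, fell from 26.7 ± 1.55 to 16.3 ± 2.30 CPM (log2 fold change -0.71, adjusted p = 6.3e-05 from edgeR). The transcripts of the other 3 kinases, EIF2AK1, EIF2AK2 and EIF2AK4, were chosen after their values were seen and had log2 fold changes of -0.01, -0.16 and 0.15. Kinase activity and eIF2 phosphorylation are not measured by these counts.

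Most of the listed targets of the other branches of the ER stress response went the other way. Of 15 ER chaperone targets of ATF6 and XBP1, 10 fell, 1 rose and 4 did not pass (median log2 fold change -0.47, and 66.7% lower against 16.6% of all tested genes). HSP90B1, the ER form of HSP90, fell from 1058 to 533 CPM and PDIA4, a disulfide isomerase, from 400.5 to 206.0 CPM (adjusted p = 1.0e-09 and 8.3e-10 from edgeR), and CRELD2 by 0.84 on the log2 scale. The 1 that rose was HERPUD1, named for that reason, by 0.37 on the log2 scale, a degradation factor that is also in the list of ATF4-responsive regulators. Of 20 p53 targets, set beside SESN2 and GDF15 because both are also known to respond to p53, 18 were tested, and 5 rose and 3 fell (median log2 fold change 0.06). Only 3 of them rose without sgCtrl replicate 2, sgNF2-1 replicate 2 or sgNF2-1 replicate 3. The largest changes were in TP53INP1, EDA2R and AEN, with log2 fold changes of -1.36, 1.34 and 0.87. CDKN1A, the p53 target and cell cycle inhibitor, rose by 0.34 on the log2 scale (adjusted p = 0.049 from edgeR), while MDM2 did not pass (log2 fold change -0.12, adjusted p = 0.40 from edgeR). Both were chosen after their values were seen. The p53 list does not hold all p53 targets. BBC3, GADD45A, TNFRSF10B and PMAIP1 also respond to p53 but were counted only among the ATF4-responsive regulators. Each of them rose at the adjusted threshold, while DDIT4, likewise left out of the p53 list, did not pass. The counts of the p53 list therefore do not stand for p53 targets as a class.

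Of 31 bZIP factors that can pair with the members, 27 were tested, and 9 rose, 3 fell and 15 did not pass (median log2 fold change 0.15). CEBPG, a preferred dimer partner of ATF4, rose from 55.9 ± 4.77 to 106.7 ± 7.09 CPM (log2 fold change 0.93, adjusted p = 1.4e-08 from edgeR). FOSL1 and MAFF, an AP-1 subunit and a small MAF protein, rose by 1.16 and 0.80 on the log2 scale (adjusted p = 5.1e-11 and 1.5e-07 from edgeR). The 3 that fell were CEBPD, JUN and FOS, named because they were so few, with log2 fold changes of -0.52, -0.39 and -0.50. The C/EBP genes therefore differed in direction, with CEBPB and CEBPG at the higher side and CEBPD at the lower.

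Paralogues of the 10 genes did not share their direction as a group: of 15 genes, 13 were tested, and 3 rose, 6 fell and 4 did not pass (median log2 fold change -0.18). Those that rose were CHAC2, CEBPG and JDP2. CEBPG and JDP2 were also counted among the bZIP factors and the ATF4-responsive regulators. TRIB2 fell from 23.5 ± 2.75 to 7.32 ± 2.01 CPM (log2 fold change -1.67, adjusted p = 1.3e-08 from edgeR), opposite to TRIB3, and TRIB1, picked after its value was seen, did not pass (log2 fold change -0.13). CHAC2 rose from 4.00 ± 1.34 to 7.77 ± 0.565 CPM (log2 fold change 0.96, adjusted p = 0.00083 from edgeR), the same direction as CHAC1 at a lower level. SESN1, picked likewise, did not pass, at a log2 fold change of -0.18, whereas SESN2 stood at 1.93. From this list, LRP8, LRP1 and LRPAP1, which are related to VLDLR or bind it, were chosen for mention after their values were seen. LRP8, the other reelin receptor beside VLDLR, fell from 112.5 to 71.2 CPM (log2 fold change -0.66, adjusted p = 9.8e-07 from edgeR). LRP1 and the receptor chaperone gene LRPAP1 fell by 0.29 and 0.24 on the log2 scale.

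The genes whose pattern over the 6 libraries was most like that of ATF4, among 8960 candidates, were IMP4, EEF1B2P3, GOT1, SCCPDH and EXOSC8, with Pearson correlations from 0.996 to 0.998. For the mean of the standardized 10 genes they were SLC27A4, RFLNB, PYGB, TTLL12 and PHGDH, from 0.998 to 0.999. The 6 libraries fall into the 2 groups, so such values mainly record the difference between the groups and a like spread within them.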

How the data were processed

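RNA of 3 sgCtrl and 3 sgNF2-1 libraries, grouped and numbered by sample title, was analysed. The authors deposited a table of unnormalized gene counts and a table of FPKM. The submitters' processing notes name HISAT2, StringTie 1.3.3b, featureCounts 1.5.0-p3 and hg38, with no roles. All columns of the authors' tables used here belong to these libraries.

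Counts were filtered with filterByExpr (minimum count 10, minimum total 15; 14179 genes kept), scaled by TMM and fitted in edgeR 4.0.16 under R 4.3.3 with the quasi-likelihood test and Benjamini-Hochberg adjustment over all tested genes. Passing means an adjusted p under 0.05. The second call rule uses an unadjusted p and the thresholds given in the methods of the paper. FPKM values (mean of at least 0.5, 13038 genes) were compared as log2(FPKM + 1) with limma 3.58.1, for sensitivity. An exact permutation test of 3 against 3 libraries cannot go below p = 0.10. Libraries within a group differed beyond counting noise (chi-square per degree of freedom 5.17 to 12.6). The labels do not say whether replicate numbers pair the libraries, and the main fit did not pair them.

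The 10 genes and all lists were chosen with earlier results of these data known. By rule, a list is represented by the 3 genes of largest absolute change among those that passed with a mean of at least 1 CPM, and other list genes were picked with their values in view. Alternatives were DESeq2 1.42.0, other scalings and filters, a replicate block, the second call rule and leaving out each library. On simulated 2-fold changes of this contrast, edgeR recovered 79.0% of 195 genes with 4 false calls among 13767. The simulation changed equal numbers of genes up and down, far fewer than the 2515 higher and 2351 lower here. Its rates therefore need not hold for the data. The values of a further list gene are not reported here.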

Additional observations from a re-analysis of the deposited data

How the results depend on the processing

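None of the 120 alternative log2 fold changes of the 10 genes reversed or moved beyond the pooled SD between replicates. For leaving out 1 library that limit decides little, since dropping 1 of 3 libraries hardly can move a group mean that far. ATF5, at 0.17, went as low as 0.08 in this way. Of 90 alternative FPKM differences, read with the same reserve, 86 stayed within the SD. A pseudocount of 0.1 moved those of ATF3, CHAC1, SESN2 and VLDLR to 2.27, 2.02, 1.91 and -0.33. Of 252 alternative counts of genes, 236 stayed within 1.5 times. An unadjusted p under 0.05 with a log2 fold change beyond 0.5 gave 1308 genes higher and 1531 lower, and 0 of the 10 genes lower. It also gave 1 bZIP factor lower, 0 amino acid genes lower, 0 ER chaperone targets higher and 6 lower, and 3 p53 targets higher. DESeq2 and library totals each gave 3 p53 targets higher. Leaving out 1 library gave 3 to 4 p53 targets higher and 0 to 1 of the 10 genes lower. Between libraries with the same replicate number, correlations of deviations were -0.04, 0.09 and 0.07, and between other numbers -0.15 to 0.09. Such values cannot show whether libraries shared a culture or a preparation. A replicate block gave 2698 genes higher and 2501 lower, against 2515 and 2351 without it. It gave 3 of the eIF2 genes higher and moved no other list count by over 1.5 times. With 5 neighbours on each side, the median around ATF4 was 0.27. The depth behind VLDLR-AS1, at most 21 counts, is too low for the filter.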
